A study of Homo sapiens with 12 samples.

Results

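Interferon-stimulated genes and the sensors of foreign RNA were followed in C4-2 prostate cancer cells after knockdown of choline kinase alpha. The set held 40 genes chosen by name, though with earlier results of these data known. All 40 were found among the 54127 gene identifiers of the count files. Of these, 33 had enough reads to be tested, as did 14501 genes in all. After knockdown 17 of the 33 tested members were higher (51.5%, against 32.1% of all tested genes) and 6 were lower (18.2%, against 30.1%). Of these 23 shifts, 20 were smaller than 2-fold. Over all tested genes, 785 of 4650 higher and 654 of 4371 lower genes reached 2-fold. The largest rises were those of IFI35, IFIT1, OAS1, HERC6, IFIT2 and BST2, followed by HERC5, a ligase, and the modifier ISG15 that it attaches. Among the falls were USP18, which removes ISG15, and STAT2, a subunit of the transcription factor that drives many of these genes.

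RNA from viruses, or double-stranded RNA of the cell itself, is bound in the cytosol by RIGI (RIG-I) and IFIH1 (MDA5) and in endosomes by TLR3, which signal through MAVS and TICAM1 to the kinase TBK1 and the factor IRF3 and so switch on type I and type III interferon genes. Secreted interferon binds receptors joined to the kinases JAK1 and TYK2, which phosphorylate STAT2, and STAT2 joins IRF9 in a complex named ISGF3 that binds the interferon-stimulated response element (ISRE) in target promoters. Target genes encode proteins that block translation or cut RNA, alter membranes, or attach the ubiquitin-like protein ISG15 to other proteins, as well as proteins that restrain the pathway.

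C4-2 is an established human prostate cancer cell line, grown here in RPMI medium with 10% FBS. Polyadenylated RNA was sequenced from 6 samples transfected with a pool of siRNAs against CHKA (siCHKA) and 6 transfected with nontargeting siRNA (siNT). Both groups received 50 nM siRNA by reverse transfection with Lipofectamine RNAiMAX, so the comparison is between 2 siRNA pools, and no untransfected sample was analysed here. The labels number the replicates but do not say whether they came from separate cultures. The study's figure legend names biological triplicates for the genes changed by knockdown and 6 biological replicates for the levels of single genes. Since these statements differ, p-values are taken to measure only the spread between these samples, which may be technical.

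The libraries held 10685184 to 24246055 reads on genes, and 3 reads corresponded to 0.128 to 0.292 CPM. CPM are counts scaled to a common library size by the TMM method, which allows for differences in RNA composition. CHKA itself ranged from 1.91 to 4.67 CPM after siCHKA and from 36.7 to 43.3 CPM after siNT. Within siCHKA, replicates 1, 3 and 5 stood apart from replicates 2, 4 and 6, with a chi-square per degree of freedom of 12.9 to 25.5 across these sets, 4.13 to 9.63 within the first and 2.45 to 4.26 within the second. The siNT samples differed among themselves as well, with pairs from 2.52 (replicates 5 and 6) to 31.3 (replicates 3 and 5). All 12 prostate epithelial markers examined were expressed, with KLK3 at 2782 to 3811 CPM after siNT. The leukocyte markers PTPRC, CD3E, CD3D, MS4A1, LYZ, TYROBP and ITGAM each stayed below 0.3 CPM in every library. The summed level of all 12 leukocyte markers was 5.00 to 7.18 CPM after siCHKA and 3.53 to 4.58 CPM after siNT, most of it from CD68, and the 8 fibroblast markers summed to 25.1 to 32.7 CPM and 15.9 to 22.5 CPM, most of it from COL1A1. The 7 endothelial markers summed to 1.99 to 3.59 CPM after siCHKA and 3.33 to 4.59 CPM after siNT. The part of these markers in the results was not tested. In bulk RNA, fewer cells with a transcript and less of it per cell cannot be told apart.

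Members were called higher or lower at an adjusted p below 0.05 in edgeR's quasi-likelihood test, adjusted over all 14501 genes. The median log2 fold change was 0.22 over the members and 0.03 over all tested genes. The 2 groups did not overlap for 10 members that were higher (30.3%) and 3 that were lower (9.1%), beside 19.1% and 21.5% of all tested genes. A log2 fold change of at least 1 together with the call was met by 3 members, IFI35, IFIT1 and OAS1, all higher. Over all tested genes, 785 met it as higher and 654 as lower. With 1 library left out, 1 to 5 members met it, the fewest without siNT replicate 3 and the most without siCHKA replicate 4 or 6.

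These counts moved with the scaling. With library size alone, the median of all tested genes lay 0.15 higher on the log2 scale. The higher share of all calls was 69.0% in place of 51.5%. Of 33 members 20 were then higher and 4 lower, against 6666 and 2995 of all 14501 genes. They moved also with the siCHKA samples used. With siCHKA replicates 1, 3 and 5 alone, 17 of 34 members were higher and 3 lower, against 4408 and 4300 of all 14694 genes. With replicates 2, 4 and 6 alone, 13 of 34 members were higher and 7 lower, against 4718 and 4594 of all 14981 genes.

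**Figure D1:**
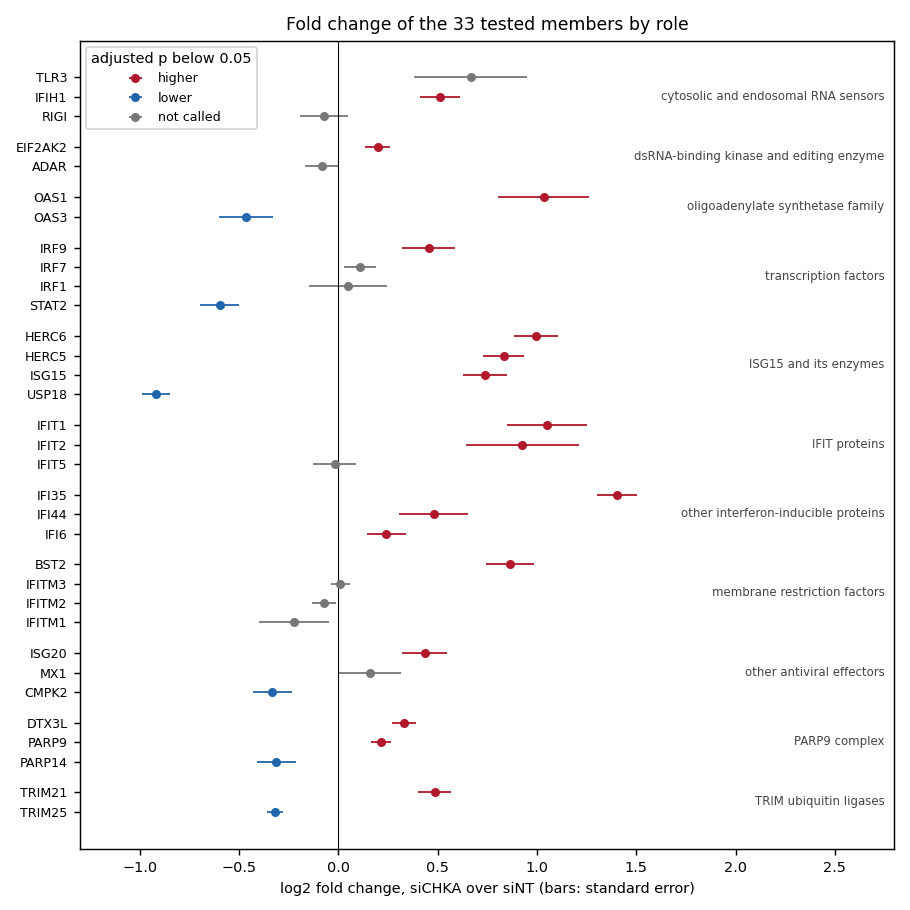
Log2 fold change of siCHKA over siNT (x axis, with its standard error as a bar) for the 33 tested members, grouped by role; red marks members higher, blue lower and grey not called at an adjusted p of 0.05. IFI35 lies farthest to the right at 1.40 and USP18 farthest to the left at -0.92.

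Promoters of the members were searched for the ISRE, which most but not all of those matched held. RefSeq promoters (GRCh38.p14, 250 bases before to 50 bases after each start) matched 34 of the 40 members by symbol, and those of IFIT2, OAS2, OASL, IRF7, USP18 and IFITM2 were not matched. The ISRE core was searched as GAAA, any 2 bases, GAAA, and on the other strand as TTTC, any 2 bases, TTTC, with overlapping matches counted. It was present in 24 of the 34 members (70.6%) and in 4.38% of the 27305 genes with a promoter. Shown first are sites of members that rose (IFIT1, ISG15, BST2, IFIH1, and DTX3L, whose site also lies in a PARP9 promoter window), then of members that fell (OAS3, PARP14) and of IFITM3, which did not pass the test. Capitals mark the matched letters, and each site runs 5′ to 3′ on the strand of its gene.
IFIT1 (chr10:89392497-89392539, plus strand): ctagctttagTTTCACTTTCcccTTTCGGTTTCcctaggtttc
ISG15 (chr1:1013374-1013409, plus strand): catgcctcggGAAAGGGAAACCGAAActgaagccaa
BST2 (chr19:17405735-17405770, minus strand): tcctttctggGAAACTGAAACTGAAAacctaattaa
IFIH1 (chr2:162318686-162318715, minus strand): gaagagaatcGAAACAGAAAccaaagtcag
DTX3L (chr3:122564322-122564351, plus strand): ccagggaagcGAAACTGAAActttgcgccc
OAS3, upstream site (chr12:112938321-112938350, plus strand): agaaagaaacGAAACTGAAAgcagggaatt
OAS3, site at the start (chr12:112938452-112938481, plus strand): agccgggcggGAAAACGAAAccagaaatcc
PARP14 (chr3:122680800-122680829, plus strand): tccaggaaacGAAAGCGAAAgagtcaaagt
IFITM3 (chr11:320876-320922, minus strand): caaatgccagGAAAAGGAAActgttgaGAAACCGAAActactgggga

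In ISG15 and BST2 a pair of overlapping matches forms a run of 3 repeats, and the same arrangement occurs in the promoters of HERC5, IFIH1 and TRIM21. Of the 19 tested members with a match, 12 were higher, 2 were lower and 5 were not called. Of the 10 tested members with a promoter entry and no match, 4 were higher (IFI35, HERC6, OAS1 and IRF9), 3 were lower (STAT2, CMPK2 and TRIM25) and 3 were not called. The members IFI35 and HERC6, among the largest rises, had no such letters in these windows. Among 363 tested genes outside the set whose promoter held the core, 31.1% were higher and 29.5% lower, close to the shares of all tested genes. A second element, the gamma-activated site, searched as TTC, any 3 bases, GAA, was found in 10 of the 34 members (29.4%) and in 9.38% of all genes with a promoter. A match is only a match of letters, and binding was not measured here.

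**Figure D2:**
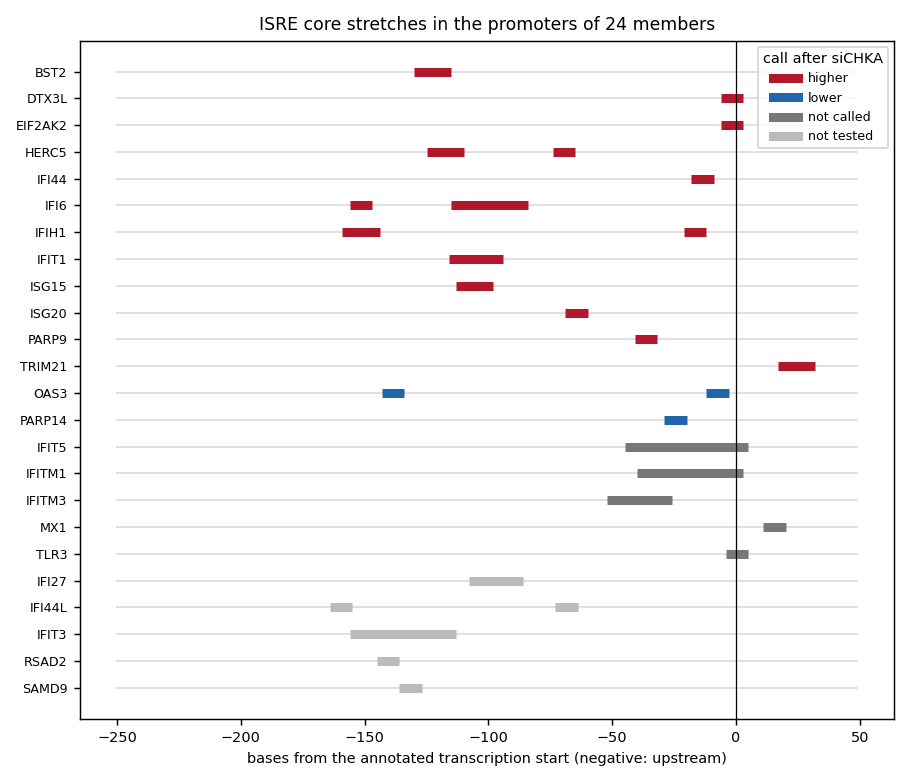
Positions of ISRE core stretches relative to the annotated transcription start (x axis, bases, negative upstream) in the 24 member promoters that held one, coloured by the call after siCHKA; a bar spans neighbouring matches together with the bases between them, grey lines span the 300 bases searched, and for genes with several windows 1 is drawn. Most stretches lie within 160 bases upstream of the start, in members that rose, fell or were not called alike.

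Of the RNA sensors IFIH1, RIGI and TLR3, 1 rose and none fell, and other members that bind double-stranded RNA are described after them. IFIH1 (ENSG00000115267, minus strand of chromosome 2, 162267074 to 162318684 in GRCh38), which binds long double-stranded RNA, measured 7.78 at the lowest, 9.56 at the median and 11.5 CPM at the highest after siCHKA, and 6.41, 6.74 and 7.53 CPM after siNT. Every siCHKA sample lay above every siNT sample. The log2 fold change was 0.51 ± 0.10 (SE, n = 6 per group, adjusted p = 0.000261). RIGI (ENSG00000107201, minus strand of chromosome 9), the sensor of RNA with a 5′ triphosphate, measured 2.99, 3.65 and 4.73 CPM after siCHKA and 3.33, 4.02 and 4.37 CPM after siNT, and the groups overlapped. Its log2 fold change was -0.07, with a 95% interval of -0.31 to 0.17 and an adjusted p of 0.629 by edgeR.

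TLR3 (ENSG00000164342, chromosome 4), the endosomal sensor of double-stranded RNA, measured 0.484, 1.10 and 1.57 CPM after siCHKA and 0.471, 0.703 and 1.17 CPM after siNT. The groups overlapped over most of their range. Its log2 fold change of 0.67 ± 0.28 (SE) missed the threshold, with an adjusted p of 0.0507 by edgeR, and passed it without siCHKA replicate 4 (adjusted p = 0.0256), siCHKA replicate 5 (adjusted p = 0.0170) or siNT replicate 6 (adjusted p = 0.0273), with the replicate number as a block (adjusted p = 0.0406), with siCHKA replicates 1, 3 and 5 alone and with library size alone as scaling. These levels rest on 127 reads over the siCHKA libraries and 65 over the siNT libraries.

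EIF2AK2 (PKR, ENSG00000055332, chromosome 2), a kinase that stops translation when it binds double-stranded RNA, measured 73.4, 82.3 and 89.2 CPM after siCHKA and 65.2, 71.7 and 78.0 CPM after siNT. All siCHKA samples but replicate 4 lay above all siNT samples. Its log2 fold change was 0.20 ± 0.06 (SE, adjusted p = 0.0100), and with siCHKA replicates 2, 4 and 6 alone it was 0.11 and not called. ADAR (ENSG00000160710, chromosome 1), which edits adenosine to inosine in double-stranded RNA, was the member with most reads, at 307 to 433 CPM after siCHKA and 350 to 421 CPM after siNT. Its log2 fold change was -0.08, with a 95% interval of -0.25 to 0.09 and an adjusted p of 0.414 by edgeR. Its siCHKA samples split, with 408 to 433 CPM in replicates 1, 3 and 5 and 307 to 332 CPM in replicates 2, 4 and 6, and with the latter alone ADAR was called lower, at -0.29 (adjusted p = 0.000967).

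The oligoadenylate synthetases make a second messenger when they bind double-stranded RNA, and the genes OAS1, OAS3 and OAS2 lie side by side on chromosome 12 between 112905856 and 113011723. OAS1 (ENSG00000089127) measured 0.819, 1.02 and 1.21 CPM after siCHKA and 0.341, 0.431 and 0.973 CPM after siNT. A single siNT sample, replicate 6, reached the siCHKA range. OAS1 rose by a log2 fold change of 1.03 ± 0.23 (SE, adjusted p = 0.000872), on 112 and 45 reads. Its neighbour OAS3 (ENSG00000111331) went the other way, with 8.26, 12.2 and 14.8 CPM after siCHKA and 14.4, 16.1 and 17.5 CPM after siNT. Replicates 2, 4 and 6 of siCHKA were the low ones, at 8.26 to 10.9 CPM, whereas replicates 1, 3 and 5 held 13.6 to 14.8 CPM. OAS3 fell by 0.47 on the log2 scale (SE 0.14, adjusted p = 0.00649), but with siCHKA replicates 1, 3 and 5 alone its log2 fold change was -0.17 and not called (adjusted p = 0.101). OAS2 had 6 reads in all siCHKA libraries and 4 in all siNT libraries, and OASL reached at most 0.588 CPM, so neither was tested.

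STAT2 and IRF9, subunits of ISGF3, moved in opposite directions. STAT2 (ENSG00000170581, chromosome 12) measured 23.5, 28.7 and 34.3 CPM after siCHKA and 37.0, 45.7 and 48.3 CPM after siNT. All siCHKA samples were below all siNT samples, and replicates 1, 3 and 5 were the lowest. STAT2 fell by 0.60 on the log2 scale (SE 0.10, adjusted p = 4.97e-05), which left 66.2% of the siNT level. IRF9 (ENSG00000213928, chromosome 14), the DNA-binding subunit, measured 5.41, 6.22 and 7.24 CPM after siCHKA and 3.20, 4.73 and 5.78 CPM after siNT. The groups overlapped at their edges, and IRF9 rose by 0.46 ± 0.13 (log2, SE, adjusted p = 0.00652). The other transcription factors of the set did not pass the test. IRF7 (ENSG00000185507, chromosome 11), which amplifies interferon production, measured 10.3, 12.5 and 14.4 CPM after siCHKA and 11.2, 11.4 and 12.2 CPM after siNT, a log2 fold change of 0.11 ± 0.08 (SE, adjusted p = 0.254) that was called with library size alone as scaling (0.26, adjusted p = 0.0126). IRF1 (ENSG00000125347, chromosome 5), a factor induced by interferon gamma, measured 1.50, 2.48 and 3.33 CPM after siCHKA and 1.76, 2.24 and 3.30 CPM after siNT, and its log2 fold change was 0.05 ± 0.20 (SE, adjusted p = 0.848). Exons of IRF1-AS1 cover 22.9% of the IRF1 exon bases in GENCODE 44, and reads of the pair cannot be assigned by strand.

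Of ISG15, HERC5, HERC6 and USP18, the first 3 were higher and USP18 was lower. ISG15 (ENSG00000187608, chromosome 1), the ubiquitin-like modifier, measured 21.2, 24.3 and 31.2 CPM after siCHKA and 11.9, 15.1 and 18.0 CPM after siNT. No siCHKA sample fell into the siNT range, and replicates 1, 3 and 5 were the highest. ISG15 rose by 0.74 ± 0.11 (log2, SE, adjusted p = 1.89e-05). HERC5 (ENSG00000138646), the ligase that attaches ISG15 in human cells, and HERC6 (ENSG00000138642), its relative, are neighbours on the plus strand of chromosome 4 between 88378739 and 88506163. HERC6 measured 13.3, 14.3 and 18.2 CPM after siCHKA and 6.30, 7.05 and 9.94 CPM after siNT. HERC5 measured 6.38, 7.34 and 8.63 CPM after siCHKA and 3.48, 4.07 and 4.71 CPM after siNT. Neither gene's groups overlapped, and the log2 fold changes were 0.99 ± 0.11 for HERC6 (SE, adjusted p = 6.84e-07) and 0.83 ± 0.10 for HERC5 (SE, adjusted p = 2.16e-06).

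USP18 (ENSG00000184979, chromosome 22) removes ISG15 from proteins and also blocks signalling at the receptor chain IFNAR2. It measured 7.40, 8.05 and 9.01 CPM after siCHKA and 14.1, 15.3 and 16.3 CPM after siNT. The groups were far apart with no split among the siCHKA samples, and USP18 fell by 0.92 on the log2 scale (SE 0.07, adjusted p = 4.74e-09), which left 52.9% of the siNT level. Among the members its fall was the largest. Other genes of the ISG15 cycle were on a separate list: the activating enzyme UBA7 had a log2 fold change of 0.61 ± 0.30 (SE, adjusted p = 0.0883) and the conjugating enzyme UBE2L6 one of -0.21 ± 0.18 (SE, adjusted p = 0.336), both at about 1 CPM and not called.

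**Figure D3:**
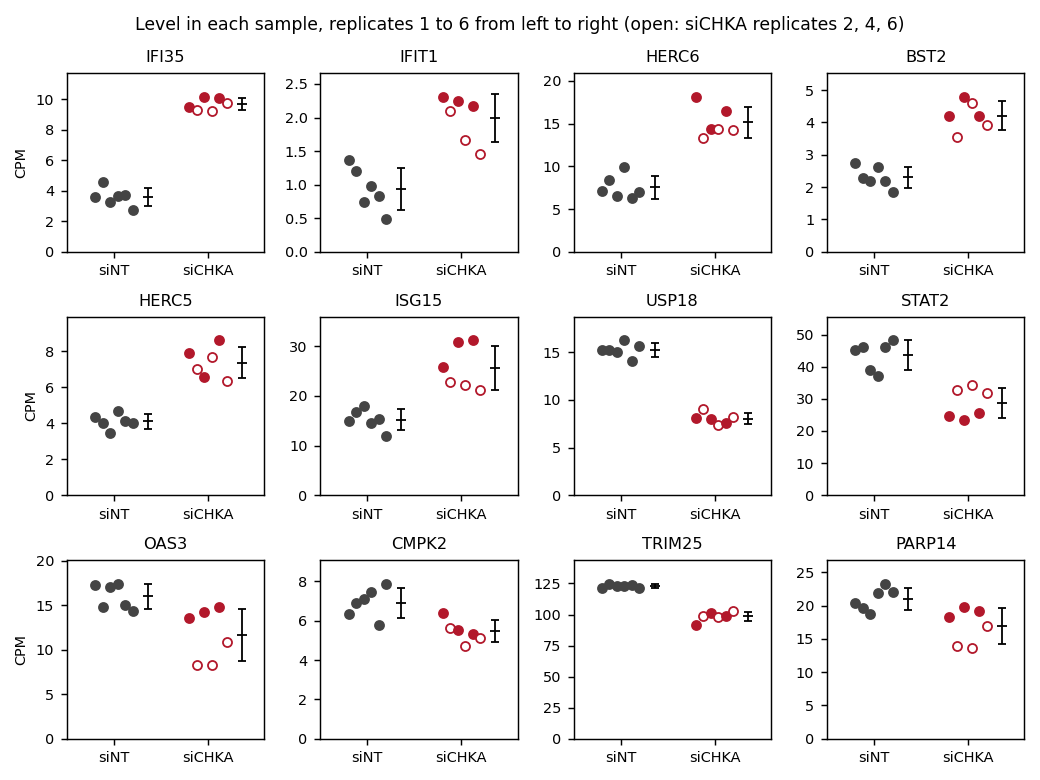
CPM (y axis, from 0) in every sample for the 6 members with the largest rise and the 6 with the largest fall among those called with a mean of at least 1 CPM; points are replicates 1 to 6 from left to right, open for siCHKA replicates 2, 4 and 6, and the bar gives mean and SD. The groups are apart in all 6 members that rose and in USP18, STAT2 and TRIM25, and overlap in OAS3, CMPK2 and PARP14.

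Of the IFIT proteins, IFIT1 binds viral RNA that lacks the cap methylation of host messages. The IFIT genes form a cluster on chromosome 10 between 89283694 and 89421605. IFIT1 (ENSG00000185745) measured 1.45, 2.14 and 2.31 CPM after siCHKA and 0.487, 0.902 and 1.37 CPM after siNT. The groups did not overlap, and IFIT1 rose by 1.05 ± 0.20 (log2, SE, adjusted p = 0.000229) on 223 and 90 reads. IFIT2 rose by 0.93 ± 0.29 (log2, SE, adjusted p = 0.00948) from levels below 1 CPM, with overlapping groups, and was not called with siCHKA replicates 2, 4 and 6 alone (0.50, adjusted p = 0.151). IFIT5, the member of the cluster with most reads, held 4.02 to 4.68 CPM after siCHKA and 3.59 to 5.36 CPM after siNT, its log2 fold change being -0.02 with a 95% interval of -0.23 to 0.19. IFIT3 was below 0.6 CPM in every library and was not tested.

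IFI35 showed the largest rise of all members. IFI35 (ENSG00000068079, plus strand of chromosome 17, 43006740 to 43014456), an interferon-induced protein that partners NMI, measured 9.22, 9.62 and 10.2 CPM after siCHKA and 2.73, 3.62 and 4.58 CPM after siNT. The 6 siCHKA samples were close together and far above the siNT samples. The log2 fold change was 1.40 ± 0.10 (SE, adjusted p = 2.80e-09), or 2.64-fold. Its partner NMI stayed below 0.5 CPM in every library and was not tested. IFI44 rose by 0.48 ± 0.17 (log2, SE, adjusted p = 0.0225) and IFI6, a mitochondrial inhibitor of apoptosis, by 0.24 ± 0.10 (log2, SE, adjusted p = 0.0415), both with overlapping groups. These were the weakest calls: IFI44 lost its call without siCHKA replicate 4 or siNT replicate 4 (adjusted p = 0.0515 and 0.0731), and IFI6 without siCHKA replicate 2, 3 or 5 or siNT replicate 1, 3, 5 or 6 (adjusted p = 0.0690 to 0.103). Both were also lost with the replicate number as a block (adjusted p = 0.0600 for IFI44 and 0.0577 for IFI6), with DESeq2 and with no filter on low counts. IFI27 reached at most 0.869 CPM and IFI44L had 2 reads in each group, and neither was tested.

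Membrane restriction factors differed from one another. BST2 (tetherin, ENSG00000130303, minus strand of chromosome 19), which holds budding virions at the cell surface, measured 3.55, 4.20 and 4.80 CPM after siCHKA and 1.85, 2.22 and 2.73 CPM after siNT. Its groups did not overlap, and it rose by 0.87 ± 0.12 (log2, SE, adjusted p = 8.36e-06). IFITM1, IFITM2 and IFITM3, which hinder virus entry by fusion and lie together on chromosome 11, did not pass the test. Their log2 fold changes were -0.22 (95% interval -0.58 to 0.13), -0.07 (-0.20 to 0.05) and 0.01 (-0.09 to 0.10), and with library size alone as scaling IFITM2 turned to 0.081 and IFITM3 was called higher (0.16, adjusted p = 0.00939). These copies are similar in sequence, and reads that align to several of them were left out by the counting.

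The remaining effectors were split. ISG20, an exonuclease of single-stranded RNA, rose by 0.44 ± 0.11 (log2, SE, adjusted p = 0.00307), from 4.87 to 7.20 CPM after siNT to 6.62 to 10.0 CPM after siCHKA, and was not called with siCHKA replicates 1, 3 and 5 alone (0.26, adjusted p = 0.0690). CMPK2 (ENSG00000134326, chromosome 2), a mitochondrial nucleotide kinase, measured 4.72, 5.43 and 6.40 CPM after siCHKA and 5.77, 6.99 and 7.89 CPM after siNT. The groups overlapped, and it fell by 0.33 on the log2 scale (SE 0.10, adjusted p = 0.00778), a call lost with siCHKA replicates 1, 3 and 5 alone (-0.25, adjusted p = 0.0920) and with library size alone as scaling (-0.18, adjusted p = 0.116). MX1, a GTPase that traps viral nucleocapsids, held 1.93 to 2.55 CPM after siCHKA and 1.24 to 2.53 CPM after siNT and was not called (log2 fold change 0.16 ± 0.16, SE, adjusted p = 0.392). MX1 shares 562 exon bases with TMPRSS2 on the opposite strand, a gene that fell by 1.27 on the log2 scale, and the part of shared reads was not tested. RSAD2 (viperin), beside CMPK2, was at 0.0807 to 0.598 CPM and SAMD9 at 0.256 to 1.40 CPM, and neither was tested.

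PARP9 and its partner DTX3L, a ubiquitin ligase complex that modifies histones and viral proteins, are transcribed away from each other on chromosome 3 from starts near the shared ISRE core shown above. DTX3L measured 63.7, 70.8 and 77.8 CPM after siCHKA and 51.2, 57.2 and 60.5 CPM after siNT. PARP9 measured 41.4, 44.2 and 48.3 CPM after siCHKA and 37.0, 38.6 and 39.1 CPM after siNT. Both were higher in every siCHKA sample than in any siNT sample, by 0.33 ± 0.06 for DTX3L (log2, SE, adjusted p = 0.000166) and 0.22 ± 0.05 for PARP9 (log2, SE, adjusted p = 0.00123). PARP14 (ENSG00000173193), also on chromosome 3, measured 13.6, 17.6 and 19.8 CPM after siCHKA and 18.7, 21.2 and 23.3 CPM after siNT. The groups overlapped, and PARP14 fell by 0.31 on the log2 scale (SE 0.10, adjusted p = 0.00970), a call lost with siCHKA replicates 1, 3 and 5 alone (-0.13, adjusted p = 0.182) and with library size alone as scaling (-0.16, adjusted p = 0.140).

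Both ubiquitin ligases of the TRIM family passed the test, in opposite directions. TRIM25 (ENSG00000121060, chromosome 17), which modifies RIGI, measured 91.4, 99.0 and 103 CPM after siCHKA and 121, 123 and 125 CPM after siNT. The groups were apart with little spread, and TRIM25 fell by 0.32 on the log2 scale (SE 0.04, adjusted p = 3.85e-06). TRIM21 (chromosome 11), the cytosolic antibody receptor, rose by 0.48 ± 0.08 (log2, SE, adjusted p = 6.43e-05), from 7.98 to 10.6 CPM after siNT to 12.2 to 14.7 CPM after siCHKA. For each of the 13 members whose groups did not overlap, the exact two-sided permutation test of log2 CPM gave p = 0.00216. This is the smallest that 6 samples against 6 allow, and groups that do not overlap always reach it. The value thus adds nothing to the lack of overlap, which was also found in 19.1% (higher) and 21.5% (lower) of all tested genes.

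**Figure D4:**
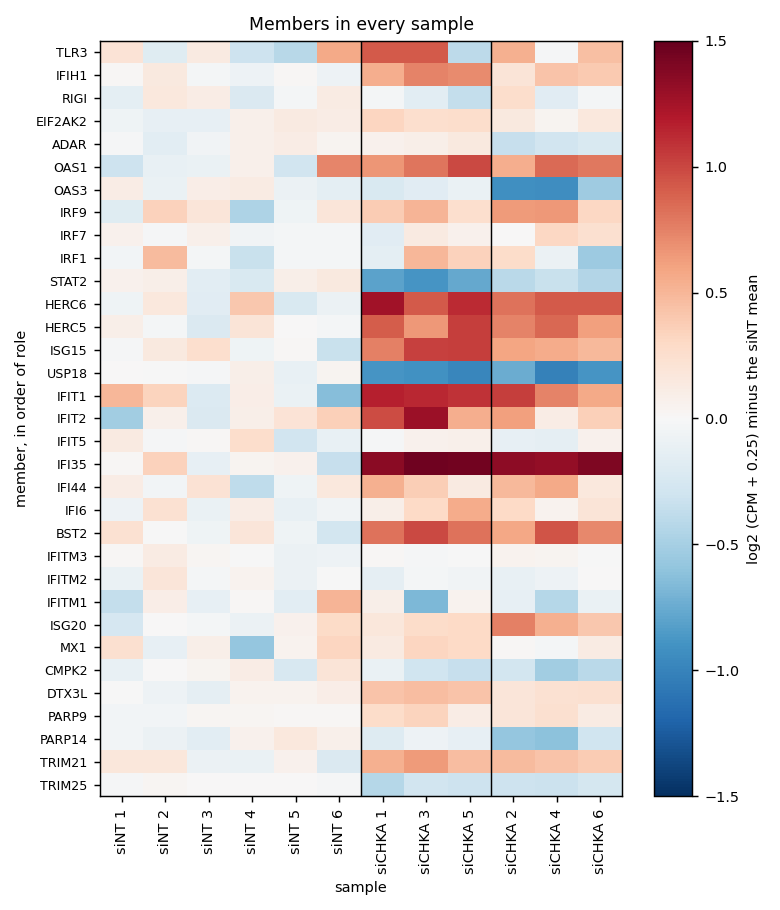
Log2 (CPM + 0.25) of the 33 tested members in each of the 12 samples, minus the mean of the siNT samples (colour, limited to 1.5 either way); black lines divide siNT, siCHKA replicates 1, 3 and 5, and siCHKA replicates 2, 4 and 6. IFI35, HERC6, HERC5, ISG15 and BST2 are red in all 6 siCHKA samples, USP18 and STAT2 blue in all 6, and OAS3 and PARP14 are darker in replicates 2, 4 and 6.

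The split among the siCHKA samples ran through the set. Replicates 1, 3 and 5 did not overlap with replicates 2, 4 and 6 in 12 of the 33 tested members (36.4%), against 47.5% of all tested genes. In 10 of them replicates 1, 3 and 5 were the higher ones (IFIT1, IFIH1, ISG15, MX1, OAS3, HERC6, PARP14, DTX3L, EIF2AK2 and ADAR), and in ISG20 and STAT2 they were the lower ones. Pairs of siNT samples also differed, by a chi-square per degree of freedom of up to 31.3, and members were not compared between subsets of siNT. No label gives a difference between the siCHKA sets, and the cause of their split was not tested.

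Levels between genes were compared per length, as reads per kilobase of the canonical transcript, scaled to library size (RPKM). In siNT cells IFITM3 (66.1 ± 3.63 RPKM, SD, n = 6) and ADAR (59.1 ± 3.99 RPKM) stood highest among the members. ISG15 (23.9 ± 3.27 RPKM) and TRIM25 (21.4 ± 0.253 RPKM) followed, within 1 SD of each other as measured in ISG15. Among the RNA sensors, IFIH1 was at 1.89 ± 0.115, RIGI at 0.847 ± 0.0942 and TLR3 at 0.123 ± 0.0434 RPKM. After siCHKA, ISG15 stood at 40.3 ± 6.92 RPKM, still behind IFITM3 and ADAR. In CPM, 12 members had an siNT mean below 1, 15 lay between 1 and 10, and 13 were at 10 or more.

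Interferon genes themselves were at or near 0. Of 14 ligand genes, 11, among them IFNB1, IFNG and IFNA1, had no read in any of the 12 libraries. By counting error this allows up to 0.128 to 0.292 CPM per library. IFNL1, IFNL2 and IFNL3 had at most 3 reads in a library. The genes of the interferon alpha family are near-identical copies, and reads that fit several copies were not counted. None of the 14 was tested.

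Receptors and kinases of the interferon response were mostly expressed, and of 9 tested 6 were higher (66.7%) and 2 lower (22.2%), against 32.1% and 30.1% of all tested genes. The chains of the type I and interferon gamma receptors differed in direction. IFNAR1, one chain of the type I receptor, measured 65.7, 71.9 and 84.5 CPM after siCHKA and 113, 126 and 140 CPM after siNT, and fell by 0.79 on the log2 scale (SE 0.06, adjusted p = 1.23e-08). IFNAR2, the other chain, measured 11.7, 13.5 and 14.9 CPM after siCHKA and 7.59, 8.56 and 10.5 CPM after siNT, and rose by 0.59 ± 0.08 (log2, SE, adjusted p = 1.04e-05). For both chains the groups did not overlap. In the receptor for interferon gamma, IFNGR2 rose by 0.75 ± 0.05 and IFNGR1 fell by 0.26 (log2, adjusted p = 2.05e-09 and 0.0139). IL10RB, which serves the type III receptor, rose by 0.46 ± 0.08 (log2, SE), while its partner IFNLR1 was below 0.2 CPM in every library. JAK1 rose by 0.42 ± 0.12 and JAK2 by 0.38 ± 0.08 (log2, SE), and TYK2 was not called (0.05 ± 0.08, adjusted p = 0.622).

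Between the sensors and the interferon genes, 24 of 28 listed adaptors, kinases and cofactors were tested, of which 9 were higher (37.5%), 4 lower (16.7%) and 11 not called, against 32.1% and 30.1% of all tested genes. MAVS, the mitochondrial adaptor of RIGI and IFIH1, measured 38.8, 40.3 and 43.7 CPM after siCHKA and 55.9, 58.4 and 66.5 CPM after siNT. It fell by 0.54 on the log2 scale (SE 0.05, adjusted p = 1.18e-07), with groups that did not overlap. TBK1, the kinase downstream of MAVS, rose by 0.48 ± 0.05 (log2, SE, adjusted p = 9.20e-07), from 81.9 to 102 CPM after siNT to 121 to 139 CPM after siCHKA. IRF3, which TBK1 phosphorylates, was not called (0.07 ± 0.07, adjusted p = 0.346). DHX58 (LGP2), the third RIG-I-like receptor, was not called either (0.09 ± 0.18, adjusted p = 0.672). DDX3X, an RNA helicase that aids this signalling, fell by 0.43 (SE 0.06, adjusted p = 5.73e-06), CHUK, a kinase of the NF-kB branch, fell by 0.38 (SE 0.05, adjusted p = 1.07e-05), and UNC93B1, which carries TLR3 to endosomes, rose by 0.40 ± 0.06 (log2, SE, adjusted p = 2.55e-05).

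Genes that restrain the response went both ways, with 10 of 23 tested higher (43.5%) and 8 lower (34.8%), against 32.1% and 30.1% of all tested genes. SOCS2, an inhibitor of cytokine receptor signalling, rose by 1.42 ± 0.09 (log2, SE, adjusted p = 1.02e-09), PTPN6 (SHP-1) by 0.73 ± 0.05 and RNF125, a ligase that marks RIGI for degradation, by 0.86 ± 0.08. PTPN11 (SHP-2) fell by 1.00 (SE 0.10, adjusted p = 1.82e-07) and PCBP2, which promotes the loss of MAVS, by 0.44 (SE 0.05, adjusted p = 5.12e-07). RNASEH2A, the catalytic subunit of an enzyme that removes RNA from RNA-DNA hybrids, measured 45.5, 53.7 and 60.3 CPM after siCHKA and 92.7, 108 and 122 CPM after siNT. It fell by 0.99 on the log2 scale (SE 0.08, adjusted p = 5.58e-09), and the other subunits RNASEH2B and RNASEH2C fell by 0.27 each (adjusted p = 0.00646 and 0.00112).

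A list of 58 further interferon-stimulated genes, of which 42 were tested, had 15 higher (35.7%) and 13 lower (31.0%), close to the 32.1% and 30.1% of all tested genes. LGALS3BP rose by 1.19 ± 0.09 (log2, SE, adjusted p = 4.32e-09), SP100, a nuclear body protein, by 0.62 ± 0.06 (adjusted p = 1.77e-07) and TDRD7 by 0.72 ± 0.09 (adjusted p = 3.30e-06). LY6E fell by 1.19 (SE 0.06, adjusted p = 1.16e-11), TRIM5, which targets retroviral capsids, by 0.99 (SE 0.05) and TRIM14, a mitochondrial partner of MAVS, by 1.08 (SE 0.06). GBP2 had the largest fitted rise, 3.38 ± 0.50 (log2, SE, adjusted p = 1.80e-05), from 0 to 0.392 CPM after siNT to 0.919 to 2.60 CPM after siCHKA. Of 15 tested genes of this list whose promoter held the ISRE core, 5 were higher and 6 lower.

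Inflammatory outputs were mostly silent, and 8 of 20 were tested. Of these, 4 were higher (50.0%, against 32.1% of all tested genes). RELB, a subunit of noncanonical NF-kB, measured 2.05, 2.69 and 3.28 CPM after siCHKA and 0.341, 0.789 and 1.06 CPM after siNT, and rose by 1.76 ± 0.20 (log2, SE, adjusted p = 9.17e-07). Its partner NFKB2 rose by 0.64 ± 0.08 and BIRC3, which restrains that pathway, by 1.10 ± 0.14 (log2, SE, adjusted p = 4.03e-06 and 3.36e-06). ICAM1 rose by 0.17 ± 0.07 (log2, SE, adjusted p = 0.0435), and none of the list was lower, or 1 without siCHKA replicate 3. The cytokines IL6, TNF, CCL2, CXCL1 and CXCL2 had no read in any library, and CXCL10, a chemokine typical of the interferon response, reached at most 0.0654 CPM.

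**Figure D5:**
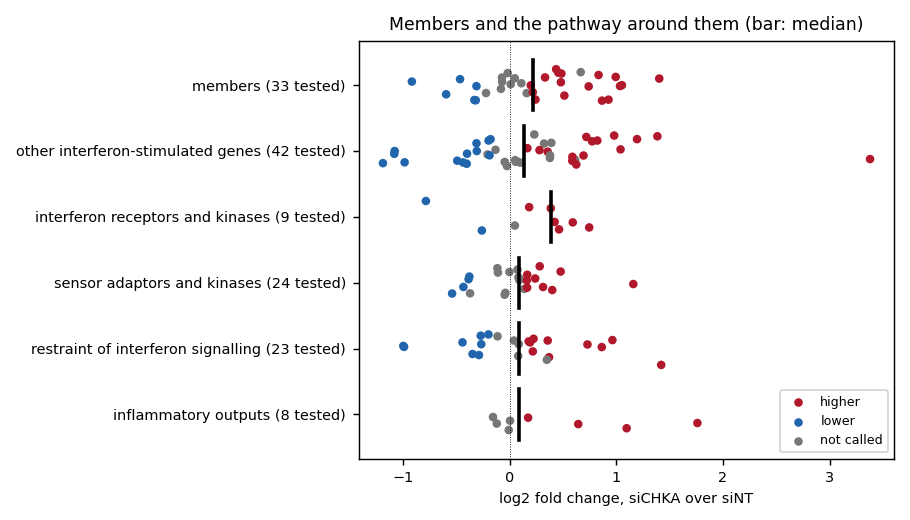
Log2 fold change of siCHKA over siNT (x axis) for each tested gene of the set and of 5 lists around it, red for higher, blue for lower and grey for not called, with the median as a black bar. All 6 lists hold genes on both sides of 0. The medians are 0.22 for the members, 0.13 for other interferon-stimulated genes and 0.38 for receptors and kinases. They are 0.086 for sensor adaptors and kinases, 0.085 for restraint genes and 0.088 for inflammatory outputs, beside 0.035 for all tested genes.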

How the data were processed

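RNA from 12 C4-2 samples was sequenced as single-end reads of 40 bases. The authors aligned reads to GRCh37 with TopHat2 2.0.4 and deposited raw counts per Ensembl gene from HTSeq 0.5.3p9, in 4 files per sample, which were summed. Of the reads in these files, 33.9% to 39.0% were assigned to no gene, mostly because they aligned more than once, and stayed out of library sizes. Groups came from the labels. The labels mention sorted cells and another RNA kit than the study's methods do.

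Genes were named through GENCODE 44, which matched 82.8% of identifiers and gave GRCh38 positions and transcript lengths. Counts were tested with edgeR 4.0.16 (filterByExpr, TMM, quasi-likelihood test, no covariate, Benjamini-Hochberg over 14501 genes). Log2 CPM used a prior count of 2, and 95% intervals are approximate, 2 standard errors either way. Alternatives were other scalings and filters, DESeq2 1.42.0, a replicate block, 1 count file per sample, subsets of siCHKA samples, each sample left out and a 2-fold minimum. The fits were also tested on simulated data. The members, gene lists and alternatives were chosen with earlier results of these data known. IKBKE, IKBKG, C19orf66, CCL5 and PECAM1 matched no identifier. Values of every sample were given for the 6 members with the largest rise and the 6 with the largest fall among those called with a mean of at least 1 CPM, for RIGI, IFIH1, TLR3 and EIF2AK2, and for the 4 transcription factors. From each pathway list the 3 genes with the smallest p in each direction were named, beside ligands, JAK1, MAVS, IRF3 and genes whose role bears directly on a member, the last chosen after their values were seen. Some genes of these lists are not reported here.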

Additional observations from a re-analysis of the deposited data

How the results depend on the processing

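Of the 17 members called higher, 12 kept the call under every alternative in which they were tested, the 2-fold minimum aside, as did 3 of the 6 called lower, and no called member changed sign. With 1 library left out in turn, 16 to 18 members were higher and 6 lower, and the genes lower among inflammatory outputs numbered 0 to 1. Of all tested genes, 4435 to 4596 were then higher and 4221 to 4402 lower. The replicate numbers do not pair the samples (mean correlation -0.036 for the same number and 0.008 for different numbers). With the replicate number as a block, 16 members were higher and 6 lower, against 4494 and 4273 of all tested genes. IFI6 and IFI44 were lost and TLR3 was gained. DESeq2 called 15 members higher and 6 lower, against 4504 and 4433 of all tested genes. With library size alone, lower genes numbered 1 among receptors, 5 among restraint genes and 8 among other interferon-stimulated genes, of which 23 were higher, the median of the members was 0.37, and IFIT5 (0.14), RIGI (0.082), IFITM2 (0.081) and ADAR (0.067) turned positive. With 1 count file per sample, 1 receptor gene was lower and 9 other interferon-stimulated genes were higher. Of all 11994 genes tested in that fit, 3413 were higher and 3467 lower. IRF1 was then at -0.18 and IFITM2 at 0.048. With siCHKA replicates 1, 3 and 5 alone, 3 members were lower and IFIT5 (0.038), IFITM3 (-0.0040) and ADAR (0.10) changed sign. With replicates 2, 4 and 6 alone, 1 receptor gene and 1 inflammatory gene were lower and RIGI (0.020) and IRF1 (-0.15) changed sign. A 2-fold minimum left 3 members higher and 0 lower, 0 receptor genes either way, 1 sensor adaptor and 1 restraint gene higher with 0 lower, 4 other interferon-stimulated genes higher and 3 lower, and 2 inflammatory genes higher. Of all tested genes, it left 785 higher and 654 lower. IFITM3 was at -0.00061 with DESeq2 and -0.020 without a filter, and IFIT5 at 0.0062 with at least 10 counts in every sample. Leaving out 1 library gave -0.081 to 0.031 for IFIT5, -0.067 to 0.20 for IRF1 and -0.013 to 0.034 for IFITM3. None of the members that changed sign was called in the full comparison, and the cause of these shifts was not tested.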
